A study of Mus musculus with 24 samples.

Results

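Coenzyme Q is a lipid that carries electrons within membranes, above all in the inner mitochondrial membrane, where it passes them from several dehydrogenases to complex III. Its benzene ring comes from tyrosine and its long isoprenoid tail from the mevalonate pathway, and a set of proteins encoded by Coq genes joins the 2 and then modifies the ring step by step. The liver, which burns fatty acids and makes cholesterol from the same isoprenoid precursors, makes its own coenzyme Q.

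The messenger RNA of 10 genes of coenzyme Q synthesis and handling was followed here in mouse liver: Coq2, Coq3, Coq5, Coq6, Coq7, Coq9, Coq8a, Coq8b, Coq10a and Coq10b. They were taken by symbol from a count table of 13686 genes, and all 10 were present and passed the filter on low counts, which kept 11971 genes. The set was chosen by the measured level of Coq8a, which was higher in livers of mice fed olive oil than in those fed cottonseed or safflower oil. The difference of Coq8a between those diets is therefore a description and not a finding, and the same 2 comparisons are given for the other members without a test.

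All mice were wild-type (WT) C57BL/6 males, an inbred laboratory strain, and were fed for 6 weeks. Diets were enriched in olive oil (OO, 6 libraries), cottonseed oil (CSO, 6 libraries) or safflower oil (SFO, 5 libraries), and a chow diet (6 libraries) served as the control. The labels give neither the composition of the diets nor the age of the mice or the hour of collection, so an oil cannot be told apart from whatever else differs between its diet and chow. RNA was sequenced from the 3′ end with QuantSeq, in which a transcript yields a tag near its 3′ end whatever its length.

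Library totals ran from 5428649 to 14930305 counts. The labels do not state that libraries of a diet came from different mice, and a p-value therefore reflects variation among libraries, part of which may be technical. All 7 hepatocyte markers examined were in the table. In CPM (counts after scaling each library to the same total) they summed to 153000 to 205000 in OO, 118000 to 165000 in CSO, 136000 to 178000 in SFO and 123000 to 161000 in chow, and the part of this difference in the results was not tested. Skeletal muscle markers, 14 of 14 in the table, summed to 0.534 to 22.4 CPM in OO, 3.7 to 1640 CPM in CSO, 2.39 to 68.9 CPM in SFO and 11.6 to 3640 CPM in chow. Adipocyte markers, 2 of 4 in the table, summed to 2.01 to 75.5 CPM in OO, 22 to 160 CPM in CSO, 0.211 to 16.3 CPM in SFO and 0.281 to 40.8 CPM in chow, and their part was not tested either. The libraries CSO 1, chow 3, chow 4 and chow 5 had over 100 CPM of Acta1, the skeletal muscle actin. At an equal depth of 5e+06 counts, OO libraries had 10910 ± 404 detected genes (SD, n = 6), CSO libraries 11980 ± 407 (n = 6), SFO libraries 11620 ± 296 (n = 5) and chow libraries 11930 ± 108 (n = 6), with the fewest, 10297, in OO 3. In bulk liver, fewer cells of a type and less RNA per cell cannot be told apart.

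Coq8a encodes an atypical kinase-like mitochondrial protein that is needed for the assembly of the synthesis complex. Its level, in CPM normalized for library size and composition, ran from 326 to 589 in OO livers, with a median of 481. In CSO livers it ran from 126 to 221 CPM with a median of 180, and in the 5 SFO livers it was 239, 227, 142, 256 and 331 CPM. Chow livers ran from 240 to 404 CPM with a median of 270. The OO libraries thus fell into an upper set of 4, above every chow library, and a pair, OO 2 and OO 5, inside the chow range. No CSO library reached the lowest chow library, and SFO libraries lay on both sides of it. The means were 457 ± 108 CPM in OO, 178 ± 31.5 CPM in CSO, 239 ± 67.8 CPM in SFO and 298 ± 62.3 CPM in chow (SD).

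**Figure D1:**
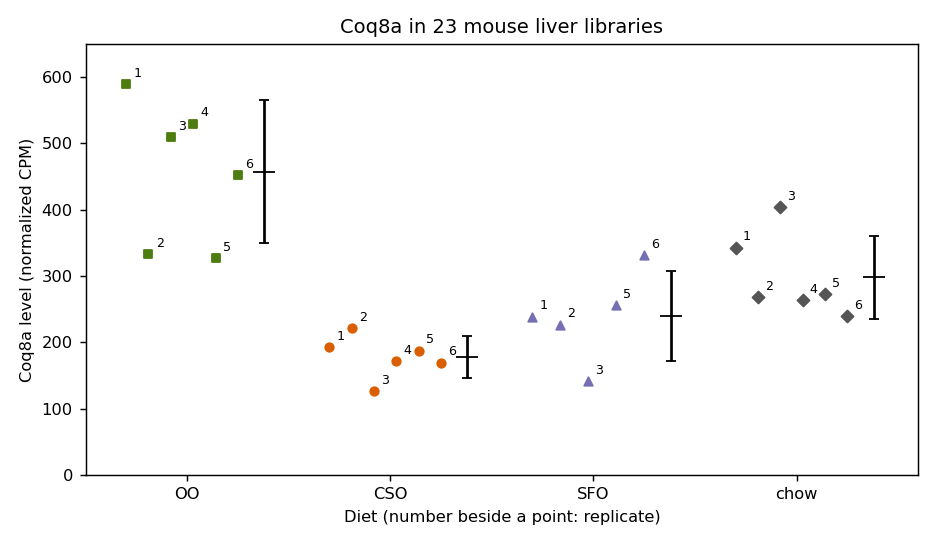
Coq8a level in each of the 23 liver libraries (vertical axis, normalized CPM, from 0), by diet (horizontal axis). Numbers are replicates and the black bars are the mean ± SD of each diet. The 6 OO libraries (326 to 589 CPM) lie above the 6 CSO libraries (126 to 221 CPM) without overlap, and the chow libraries (240 to 404 CPM) lie above all CSO libraries and below 4 of the OO libraries.

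In the comparisons that chose the set, the fitted log2 fold change of Coq8a was 1.36 ± 0.18 (SE) for OO against CSO, with 6 of 6 OO libraries above every CSO library, in a comparison that called 1.09% of all genes. For OO against SFO it was 0.94 ± 0.19, with 5 of 6 OO libraries above every SFO library, where 1.06% of all genes were called. Each oil diet was then compared with chow. Those comparisons share the chow libraries, and for Coq8a they also share the OO, CSO and SFO libraries on which it was chosen, so its calls against chow are not independent of that choice. Log2 fold changes are given ± SE, and adjusted p-values come from the quasi-likelihood F test of edgeR after Benjamini-Hochberg correction across all 11971 genes, with a threshold of 0.05.

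Against chow, 1 of the 10 members was called higher in OO livers and 0 lower, where 1.72% of all tested genes were called higher and 2.64% were called in either direction. The called member was Coq8a, at 0.61 ± 0.17, or 1.53-fold (adjusted p = 0.0434). All 6 OO libraries were above the mean of chow. The call was narrow: with DESeq2's size factors the adjusted p was 0.0505 at the same fold change. Leaving out any 1 of 10 libraries (OO 1, OO 3, OO 4, OO 6, CSO 4, CSO 6, chow 2, chow 4, chow 5 or chow 6) ended it, with fold changes between 0.53 and 0.72 over all 23 such fits. Scaled by library totals alone, Coq8a was at 0.42 ± 0.16 (adjusted p = 0.19), and with the number of detected genes as a covariate, an alternative chosen after the data were seen, it was at 0.36 ± 0.28 (adjusted p = 0.954). Every OO library had fewer detected genes (10297 to 11558) than every chow library (11825 to 12072). That covariate and the diet therefore cannot be told apart here, and only 10 genes in all were called with it.

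In CSO livers 0 of the 10 members were called higher than in chow and 1 lower, where 0.200% of all genes were called lower and 0.409% in either direction. This was again Coq8a, at -0.74 ± 0.18, or 1.68-fold lower (adjusted p = 0.0339), with all 6 CSO libraries below every chow library. Without the 4 libraries that held muscle transcripts the fold change was -0.70 ± 0.23 and was not called (adjusted p = 0.545), and OO against chow was then 0.69 ± 0.23 (adjusted p = 0.237). Leaving out any 1 of 8 libraries (CSO 1, CSO 3, CSO 4, CSO 5, CSO 6, chow 1, chow 2 or chow 3) also ended the CSO call, with fold changes between -0.82 and -0.64 over all 23 such fits.

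No member was called in SFO livers against chow (0 of 10 by edgeR, 0 by DESeq2 or limma voom, and 1 at an unadjusted p under 0.05), where 0.835% of all genes were called. Coq8a was at -0.32 ± 0.18 there (adjusted p = 0.758), with 3 of 5 SFO libraries below every chow library. Between CSO and SFO, too, no member was called (0 of 10 by edgeR, 0 by DESeq2 or limma voom, and 2 at an unadjusted p under 0.05), against 0.493% of all genes. These shares are of genes called after adjustment. The share of all genes at an unadjusted p under 0.05 was not computed, so the unadjusted counts are descriptions. Coq8a was at -0.42 ± 0.18 for CSO against SFO (adjusted p = 0.524). Ordered by mean level the diets ran OO, chow, SFO and CSO. For the neighbours chow and SFO, and SFO and CSO, no difference was called after adjustment (unadjusted p = 0.0861 and 0.0251 by edgeR).

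In the authors' deposited tables of chow against each oil, with the sign turned here to oil over chow, Coq8a had a log2 fold change of 0.61 ± 0.19 in OO (adjusted p = 0.0358), -0.75 ± 0.19 in CSO (adjusted p = 0.0106) and -0.30 ± 0.20 in SFO (adjusted p = 0.725). The authors' deposited table for OO also held Coq9 under the threshold, at 0.78 ± 0.25 (adjusted p = 0.0426).

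RefSeq lists more than 1 start for some members, and 8 of the 10 have an entry in its promoter table (GRCm38.p6), with 11 promoters in all. Each covers 250 bases before to 50 bases after the start. Those of Coq8a are shown because that gene carried both calls, and that of Coq10b because its highest OO library exceeded its lowest by 62.1-fold, the largest such ratio of any member and diet. The counts were made on another build, so these coordinates were not used with them. Capitals mark CCAAT, read on either strand (reverse complement ATTGG), in the outer Coq8a promoter at chr1:180195971-180196270 on the minus strand. They mark AGGTCA, the core motif bound by RORs and other nuclear receptors (reverse complement TGACCT), in the inner one at chr1:180193436-180193735, also on the minus strand, and the E-box CACGTG, bound by the clock proteins and other factors, in the Coq10b promoter at chr1:55052520-55052819 on the plus strand.
Coq8a, outer promoter: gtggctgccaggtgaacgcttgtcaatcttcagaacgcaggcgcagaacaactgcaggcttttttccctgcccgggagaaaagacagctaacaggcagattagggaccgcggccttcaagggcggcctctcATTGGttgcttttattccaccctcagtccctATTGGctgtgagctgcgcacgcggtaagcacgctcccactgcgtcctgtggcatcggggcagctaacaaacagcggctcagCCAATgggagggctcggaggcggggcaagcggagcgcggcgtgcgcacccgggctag
Coq8a, inner promoter: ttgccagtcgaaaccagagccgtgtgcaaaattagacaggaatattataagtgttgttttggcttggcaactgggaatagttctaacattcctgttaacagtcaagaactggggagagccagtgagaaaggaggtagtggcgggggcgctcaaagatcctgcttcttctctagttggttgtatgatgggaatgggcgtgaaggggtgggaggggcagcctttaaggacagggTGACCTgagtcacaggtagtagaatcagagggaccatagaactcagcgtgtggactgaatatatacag
Coq10b promoter: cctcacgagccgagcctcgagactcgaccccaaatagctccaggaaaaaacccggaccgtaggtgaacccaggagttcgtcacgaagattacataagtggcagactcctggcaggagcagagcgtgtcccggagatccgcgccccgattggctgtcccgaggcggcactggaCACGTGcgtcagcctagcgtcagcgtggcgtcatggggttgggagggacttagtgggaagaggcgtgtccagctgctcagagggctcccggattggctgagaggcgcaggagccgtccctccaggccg

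The outer Coq8a promoter holds CCAAT matches that begin at -119, -88 and -7 from the start, the inner one a single AGGTCA match at -18, and the Coq10b promoter a CACGTG match at -78. The Coq10b window also holds CCAAT matches at -104 and 13, left in lower case, as only 1 motif is marked in each sequence. No 2 of these motifs overlap. Among all 32851 promoters in the table, CCAAT is present in 37.4%, AGGTCA in 16.3% and CACGTG in 7.15%, and among the 11 member promoters in 4, 3 and 1. These matches describe the letters of the windows only.

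Coq9 binds lipids and delivers the ring intermediate to the hydroxylase Coq7. Its level in OO livers ran from 87.5 to 289 CPM with a median of 138. It ran from 86.8 to 116 CPM with a median of 101 in CSO, was 115, 84.1, 88.9, 58 and 79 CPM in SFO, and ran from 66 to 126 CPM with a median of 88.6 in chow. The OO libraries were split, with OO 2, OO 3 and OO 6 above every chow library and the other 3 inside the chow range. OO against chow was 0.77 ± 0.24 and missed the threshold (adjusted p = 0.0577). The value moved to 0.50 when OO 3, its highest library, was left out and to 0.04 ± 0.36 with the number of detected genes as a covariate (adjusted p = 0.996). That covariate cannot be told apart from the diet in OO against chow. CSO against chow was 0.16 ± 0.23 and SFO against chow -0.10 ± 0.25. As a description, Coq9 was at 0.61 ± 0.23 for OO against CSO and 0.87 ± 0.25 for OO against SFO.

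Coq5 is the methyltransferase that adds the ring's carbon-bound methyl group. It ran from 10 to 54.5 CPM in OO with a median of 26.1, from 16.6 to 32.6 CPM in CSO with a median of 24.7, was 13.9, 33.6, 21.5, 15.3 and 57.8 CPM in SFO, and ran from 8.5 to 18.6 CPM in chow with a median of 9.82. It was the member with the largest fitted difference from chow in all 3 oil diets, and in none was it called. These values were 1.19 ± 0.43 in OO (adjusted p = 0.111), 0.92 ± 0.42 in CSO (adjusted p = 0.879) and 1.19 ± 0.44 in SFO (adjusted p = 0.355), all against the same chow libraries. Above every chow library were 4 of 6 OO, 4 of 6 CSO and 3 of 5 SFO libraries.

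The first step proper, the joining of ring and tail by the prenyltransferase Coq2, gave 0.45 ± 0.37 in OO, 0.13 ± 0.37 in CSO and -0.22 ± 0.39 in SFO against chow (adjusted p = 0.607, 1 and 0.979). In OO livers Coq2 ran from 8.76 to 72.4 CPM, with 4 of 6 libraries above every chow library and 1, OO 1, below every one. Coq3, the methyltransferase that modifies the ring's oxygens, ran from 1.8 to 36.3 CPM in OO and from 9.06 to 19.6 CPM in CSO, was between 11.5 and 17.6 CPM in SFO and ran from 8.75 to 21.4 CPM in chow. Its fitted differences from chow were 0.09 ± 0.52 in OO, 0.21 ± 0.52 in CSO and 0.07 ± 0.55 in SFO, none of them called. The wide OO range included 13 counts in OO 3, its lowest library.

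Both hydroxylases were at low counts. Coq6, a flavin-dependent enzyme, averaged 16.4 ± 10.4 CPM in OO, 10.4 ± 4.50 CPM in CSO, 23.2 ± 19.9 CPM in SFO and 16.4 ± 6.02 CPM in chow. For CSO against SFO it was at -1.16 ± 0.57, with an adjusted p of 0.641, and its SFO libraries spread from 2.01 to 49.8 CPM. Coq7, an iron enzyme, averaged 26.3 ± 15.7 CPM in OO, 27.2 ± 10.8 CPM in CSO, 21.6 ± 8.75 CPM in SFO and 17.7 ± 9.58 CPM in chow. Its differences from chow, 0.58 ± 0.43 in OO, 0.62 ± 0.43 in CSO and 0.29 ± 0.45 in SFO, were not called.

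**Figure D2:**
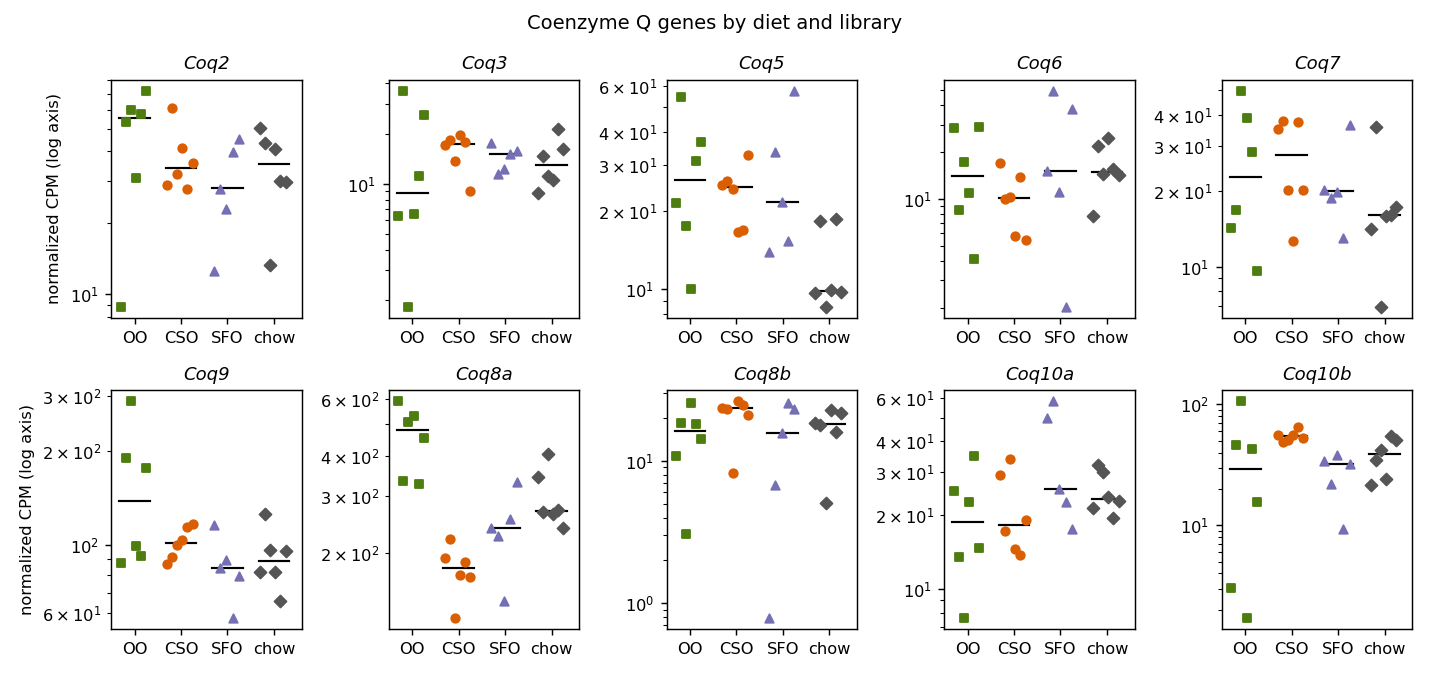
Levels of the 10 members in each library (vertical axes, normalized CPM on log axes that differ between panels), by diet (horizontal axes). Points are libraries and black lines are medians. Coq10b spans 49 to 65.5 CPM in CSO livers and 1.71 to 106 CPM in OO livers, and Coq8a in OO livers lies above Coq8a in CSO livers.

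Coq8b is the close relative of Coq8a, needed above all in kidney. It was at 15.1 ± 7.67 CPM in OO, 21.2 ± 6.58 CPM in CSO, 14.4 ± 10.6 CPM in SFO and 17.0 ± 6.38 CPM in chow, and no comparison was called. Its lowest value, 0.784 CPM in SFO 1, stood on 8 counts. Against chow it was at -0.17 ± 0.54 in OO and at 0.32 ± 0.54 in CSO, while Coq8a was at 0.61 ± 0.17 and -0.74 ± 0.18 there. Within a library, the log2 ratio of Coq8a to Coq8b averaged 5.11 ± 1.23 in OO, 3.13 ± 0.416 in CSO, 4.64 ± 1.97 in SFO and 4.24 ± 1.04 in chow (SD). Each of the 6 OO libraries exceeded the highest CSO ratio, 3.9, while the SFO and chow ratios reached from below that value to 7.92 in SFO and 6.27 in chow. This ratio uses Coq8a and is a description.

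Coq10a and Coq10b encode lipid-binding proteins, related to yeast Coq10, that are thought to carry coenzyme Q to its sites of use. Coq10b ran from 1.71 to 106 CPM in OO, with a median of 29.3, and from 49 to 65.5 CPM in CSO, with a median of 54.3. It was 33.9, 21.9, 38.4, 9.29 and 32.2 CPM in SFO and ran from 21.7 to 55.1 CPM, with a median of 38.6, in chow. The CSO libraries lay within 1.34-fold of each other and the OO libraries within 62.1-fold. Every CSO library was above every SFO library, yet the fitted difference of 1.02 ± 0.64 was not called (adjusted p = 0.822). Against chow Coq10b was at -0.09 ± 0.60 in OO, 0.52 ± 0.60 in CSO and -0.49 ± 0.63 in SFO. With only the 2 diets of each comparison fitted, these were -0.10 ± 0.66, 0.53 ± 0.23 and -0.48 ± 0.36, none called.

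Coq10a averaged 19.7 ± 9.76 CPM in OO, 21.3 ± 8.26 CPM in CSO, 34.8 ± 18.0 CPM in SFO and 24.9 ± 4.96 CPM in chow. It was at -0.33 ± 0.40 in OO, -0.23 ± 0.40 in CSO and 0.48 ± 0.41 in SFO against chow, none called. The log2 ratio of Coq10a to Coq10b was negative in all 6 CSO libraries (-2.24 to -0.57) and in all 6 chow libraries (-1.49 to -0.02). Among OO libraries it ran from -3.77 in OO 3 to 3.58 in OO 4, and among SFO libraries from -0.86 to 1.40. In chow 1 and chow 4 the ratio was -0.02 and -0.03, so the 2 genes were at nearly equal levels there. Among OO libraries it was positive only in OO 1 and OO 4, where Coq10b stood on 30 and 16 counts. A difference of the ratio between diets was not tested.

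**Figure D3:**
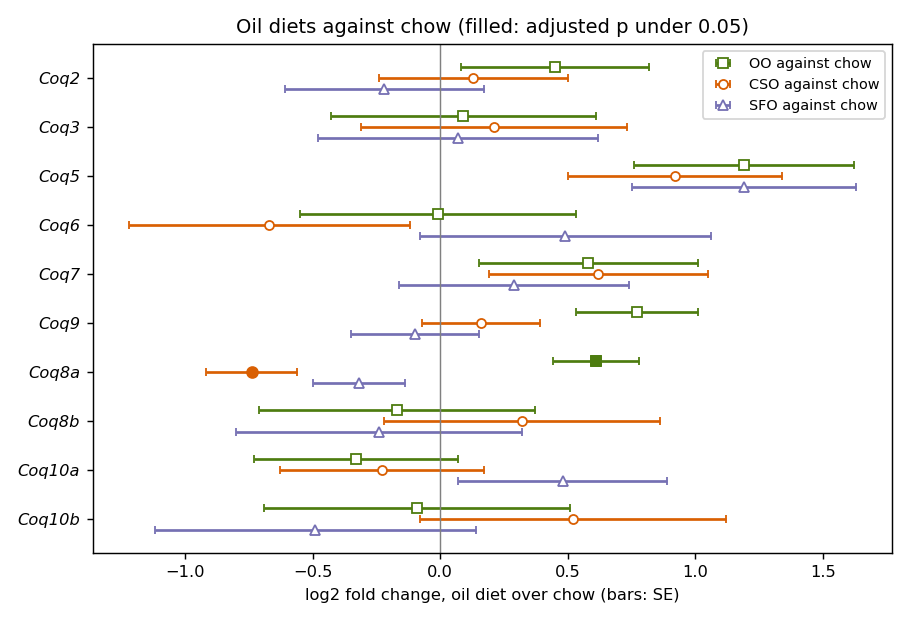
Fitted log2 fold change of each member in OO, CSO and SFO livers over chow (horizontal axis), with SE bars. Filled symbols have an adjusted p under 0.05: Coq8a at 0.61 in OO and at -0.74 in CSO.

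Over the 10 members, the median log2 fold change against chow was 0.27 in OO, 0.18 in CSO and -0.01 in SFO, beside medians of 0.07, -0.02 and 0.01 over all tested genes. The number of members with a positive value was 6, 7 and 5 of 10. For CSO against SFO the members' median was 0.20 and that of all genes -0.03. Across the 23 libraries, the strongest Pearson correlations of log2 CPM among the 45 pairs of members were -0.52 for Coq8a with Coq10b, -0.51 for Coq9 with Coq10a and -0.49 for Coq2 with Coq10a. Measured within diets these 3 were -0.37, -0.37 and -0.43. The strongest within diets belonged to other pairs, 0.63 for Coq9 with Coq10b (0.29 across all libraries) and -0.50 for Coq9 with Coq8b (-0.35 across all libraries). All pairs share libraries and depth, so these are descriptions.

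The levels of Coq8a and Coq10b were set beside a clock score, the mean log2 CPM of Per2, Per3, Tef, Dbp and Ciart minus that of Clock, Arntl, Npas2 and Nfil3, which was chosen in earlier results of these data. The daily clock of the liver drives both groups of genes, in opposite phases. The score averaged 1.21 ± 1.54 in OO, 3.92 ± 0.644 in CSO, 1.71 ± 2.37 in SFO and 1.48 ± 1.76 in chow (SD). With diet held constant, Coq8a had a slope of -0.13 ± 0.04 on the log2 scale per unit of the score and Coq10b a slope of 0.26 ± 0.16. Neither slope passed the threshold over all genes (adjusted p = 0.292 and 0.792 by edgeR), nor did that of any other member, while 0.0835% of all genes were called. With the score as a covariate, Coq8a in CSO against chow was at -0.42 ± 0.19 (adjusted p = 0.822) and in OO against chow at 0.58 ± 0.16 (adjusted p = 0.0338). Every chow score (-1.55 to 2.75) lay below every CSO score (2.90 to 4.82). The CSO value thus extends the fitted slope over scores that the 2 diets do not share, and cannot separate score from diet.

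**Figure D4:**
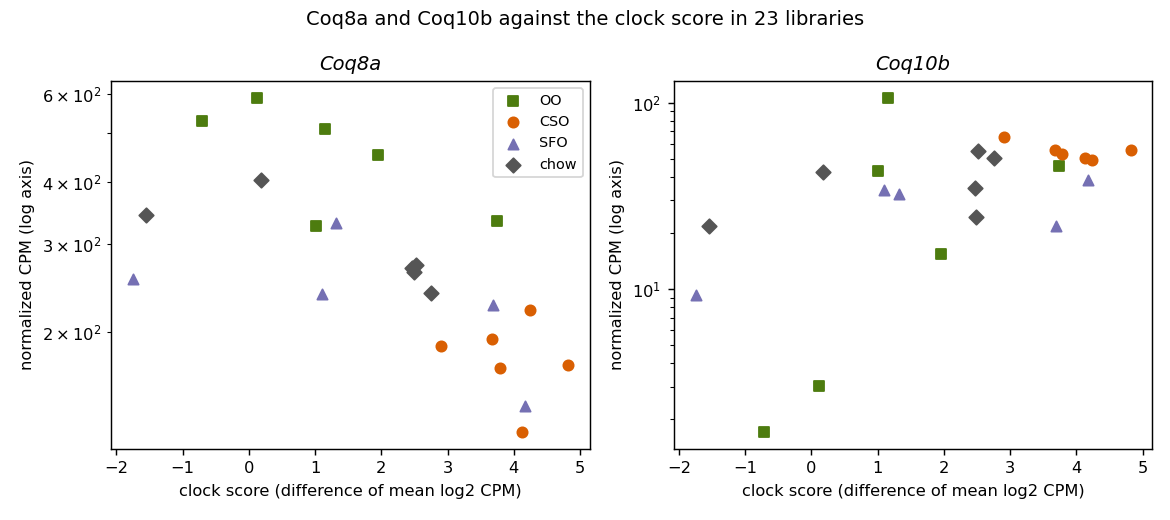
Coq8a (left) and Coq10b (right) in normalized CPM on log axes (vertical) against the clock score, a difference of mean log2 CPM (horizontal), in the 23 libraries. The 6 CSO libraries lie at scores of 2.90 to 4.82, with Coq8a low and Coq10b high. OO and SFO libraries reach from lower scores into that range, and all chow libraries lie below it (-1.55 to 2.75).

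The gene body of Cdc42bpa, which encodes a kinase that acts on the cytoskeleton, covers the 3′ end of Coq8a on the opposite strand in the mouse annotation used here (GRCm38). No source used here gives the strand setting of the counting, and the overlap is of whole gene spans, with exons not compared. Whether reads of the 2 genes were mixed there was not tested. Cdc42bpa itself was at 49.2 ± 23.7 CPM in OO, 43.4 ± 8.92 CPM in CSO, 43.0 ± 11.9 CPM in SFO and 55.3 ± 14.2 CPM in chow, with log2 fold changes against chow of -0.17 ± 0.32 in OO and -0.35 ± 0.32 in CSO, neither called. Coq9 and Coq6 are overlapped on the opposite strand by Ciapin1 and Fam161b, away from their 3′ ends. Coq8b is overlapped at its 3′ end, on the same strand, by Gm44641, a transcript without a row in the count table, so tags there cannot be told apart by strand and the Coq8b values and the ratio to it are uncertain to that extent.

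By Pearson correlation of log2 CPM over the 23 libraries, among 5680 genes, the 5 most like Coq8a were Abcb11 (0.889), Sgpl1 (0.831), Gjb1 (0.825), Lgals9 (0.822) and Cyb5b (0.807). Abcb11 is the bile salt export pump, Sgpl1 cleaves sphingosine phosphate, Gjb1 forms gap junctions between hepatocytes, Lgals9 is a galectin, and Cyb5b is the cytochrome b5 of the outer mitochondrial membrane. Within diets the correlations were 0.623, 0.417, 0.538, 0.669 and 0.623 in that order. Abcb11 averaged 1080 ± 243 CPM in OO, 495 ± 86.6 CPM in CSO, 684 ± 141 CPM in SFO and 716 ± 83.8 CPM in chow. Cyb5b averaged 695 ± 168 CPM in OO, 412 ± 46.8 CPM in CSO, 381 ± 71.3 CPM in SFO and 456 ± 81.9 CPM in chow. These genes were picked for their likeness to Coq8a over the same libraries, so the levels by diet are a description.

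Genes around the pathway were read from 8 lists. Of the 3 other synthesis genes, Pdss1 and Pdss2, which build the tail, and Coq4, 0 were called by edgeR in OO, CSO or SFO against chow or in CSO against SFO, and 0 had an unadjusted p under 0.05. Pdss2 was at -0.24 ± 0.59 in OO, -1.11 ± 0.60 in CSO and -0.25 ± 0.62 in SFO against chow. Coq4 lay on the other side, at 1.76 ± 0.89 in OO, 1.19 ± 0.88 in CSO and 1.12 ± 0.91 in SFO, and fell to 0 counts in SFO. Pdss1 was at -0.84 ± 0.88 in OO, -0.49 ± 0.87 in CSO and 0.90 ± 0.91 in SFO. Of 3 tested enzymes on the way to the ring, Got2, the mitochondrial aspartate aminotransferase, was called higher in OO livers, at 457 ± 73.7 CPM in OO against 330 ± 36.7 CPM in chow (0.47 ± 0.13, adjusted p = 0.0428). In that comparison 1.72% of all genes were called higher. This call lay close to the threshold and was not examined under the other settings.

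The mevalonate pathway, which supplies the tail, had 8 tested genes, of which 2 were called higher in OO, 0 in CSO and 1 in SFO against chow, and none lower, beside 1.72% of all genes called higher in OO, and 0.409% in CSO and 0.835% in SFO called in either direction. Hmgcs1, the synthase at the head of the pathway, was at 951 ± 232 CPM in OO, 722 ± 187 CPM in CSO, 856 ± 369 CPM in SFO and 453 ± 98.9 CPM in chow. It was called in OO (1.07 ± 0.21, adjusted p = 0.00756) and in SFO (0.92 ± 0.22, adjusted p = 0.0417), and not in CSO (0.67 ± 0.21, adjusted p = 0.30). Fdps, which makes the farnesyl unit, was called in OO (0.84 ± 0.22, adjusted p = 0.0334). The list's median was 0.85 in OO, 0.63 in CSO and 0.76 in SFO, against -0.02 to 0.07 over all genes.

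None of the 14 listed genes of coenzyme Q reduction, the 9 subunits of complex III that oxidise it, the 7 tested partners of its synthesis, the 10 general mitochondrial proteins or the 8 regulators was called by edgeR in the same 4 comparisons. The 14 genes are not 14 separate enzymes. Sdha, Sdhb, Sdhc and Sdhd encode subunits of a single enzyme, and Etfa and Etfb the flavoprotein that passes electrons to Etfdh. In OO against chow, 3 of the 14, 1 of the 9, 1 of the 7, 0 of the 10 and 2 of the 8 had an unadjusted p under 0.05. The share of all genes under that unadjusted threshold was not computed. These counts and the next are therefore descriptions, and cannot be read as more or fewer than other genes would give. In CSO against chow this held for 1 of the 8 regulators alone, and in SFO against chow for 1 of the 14 genes of coenzyme Q reduction alone. In CSO against SFO it held for 4 of the 14, 2 of the 9, 0 of the 7, 0 of the 10 and 1 of the 8. There all 14 genes of coenzyme Q reduction had a value above 0, with a median of 0.34 beside -0.03 over all genes. The same 14 genes had a median of 0.17 in OO, 0.13 in CSO and -0.22 in SFO against chow, with 11, 12 and 1 of the 14 above 0. Sdha, the flavin subunit of succinate dehydrogenase, was at 0.13 ± 0.12 in OO, 0.14 ± 0.12 in CSO and -0.18 ± 0.12 in SFO. Uqcrc1 of complex III was at 0.15 ± 0.16 in OO, -0.06 ± 0.16 in CSO and -0.25 ± 0.17 in SFO. Among the others, named as the most abundant of their lists, the values in OO against chow were 0.14 ± 0.22 for the lipid carrier Stard7, 0.18 ± 0.13 for the chaperone Hspa9 and 0.31 ± 0.13 for the fasting regulator Ppara. Ppara and Uqcrc1 do not stand for their lists. In OO against chow the 8 regulators had a median of -0.34, with 3 above 0 and 5 below. The 9 complex III subunits had a median of -0.09, with 4 above 0 and 5 below, beside 0.07 over all genes.

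**Figure D5:**
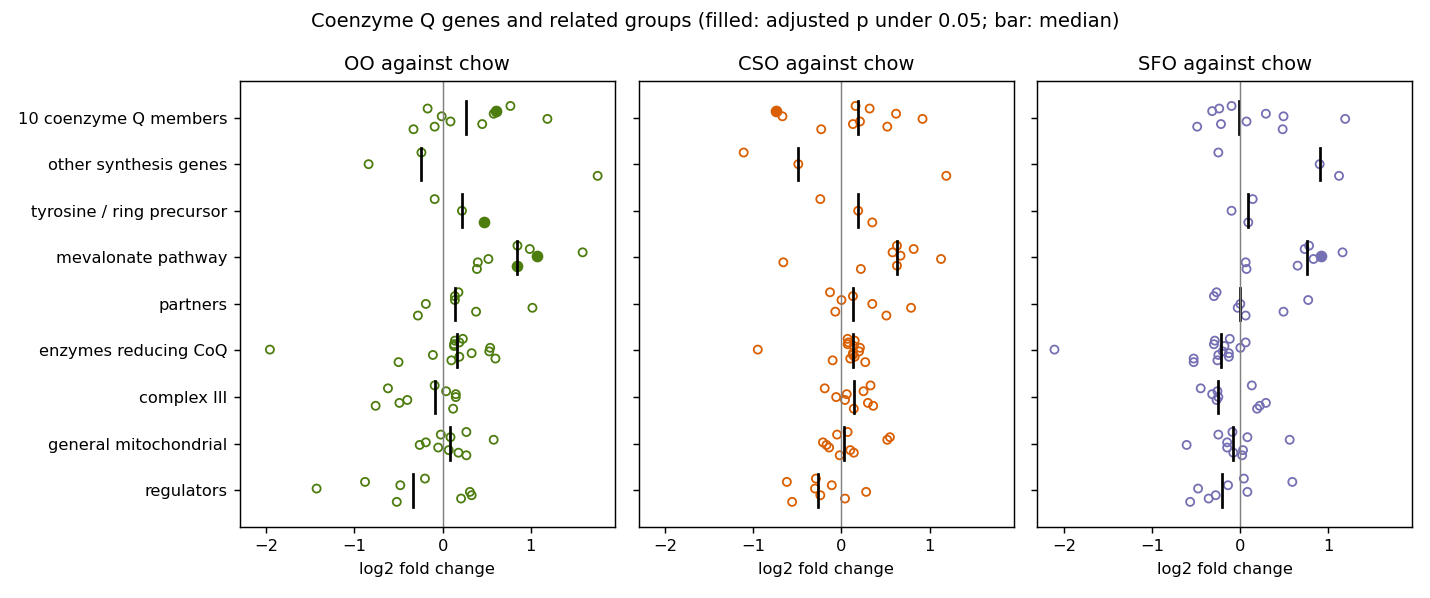
Log2 fold change of each tested gene (points) against chow (horizontal axis) in OO, CSO and SFO livers (panels), for the 10 members and 8 related groups (rows), with black bars at the median and filled points at an adjusted p under 0.05. The called genes are Coq8a in OO and CSO, Got2, Hmgcs1 and Fdps in OO and Hmgcs1 in SFO.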

How the data were processed

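The authors deposited raw counts per gene for 23 liver libraries and 3 tables of chow against 1 oil diet, each with a mean signal (size-factor scaled counts averaged by the authors, per the file headers), a log2 fold change, its standard error on the log2 scale, a score given as a Wald statistic, and p-values with and without adjustment. Per the submitters' processing notes, reads were processed with Trimmomatic, STAR 2.7.1a and HTSeq 0.9.1 on mm39, and DESeq2 and DESeq were used. The labels name 24 samples. SFO_4, which the submitters describe as an outlier, is not analysed here.

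The analysis of counts used edgeR 4.0.16 in R 4.3.3 (filterByExpr, TMM, robust quasi-likelihood F test, diet as the only term over all 23 libraries), with Benjamini-Hochberg adjustment over 11971 genes at 0.05. Log2 CPM used a prior count of 2. The procedure was tested on simulated data, with changes placed in OO alone and larger than those of Coq8a. That test does not bear on calls near the threshold. Alternatives used limma 3.58.1 and DESeq2 1.42.0, and figures Python 3.11.15 with matplotlib 3.10.9.

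The members, the 8 lists, the motifs and the clock score were chosen with earlier results of these data known. From each list up to 3 called genes of lowest adjusted p are named in a comparison, or the most abundant 1 where none was called. The 3 other synthesis genes are all given. The genes most like Coq8a are the 5 of highest correlation among those averaging 4 or more in log2 CPM. The listed genes Hpdl, Idi1 and Fdx2 were not used here. Promoters are from RefSeq, and gene overlaps from a GRCm38 annotation.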

Additional observations from a re-analysis of the deposited data

Results flagged for a closer look

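In 2 of the 40 combinations of a member and a diet, 1 library stood apart from the others by Dixon's criterion, which chance alone meets in about 1 of 20 groups. Coq7 was at 35.7 CPM in chow 2, with the other 5 chow libraries at 6.92 to 17.3 CPM. Coq8b was at 8.27 CPM in CSO 3, with the other 5 CSO libraries at 20.9 to 26.3 CPM. Neither gene was called in any comparison with or without these libraries.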

How the results depend on the processing

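The count of members called was 0 in OO against chow, in place of 1, with DESeq2's size factors, with library totals alone, with limma voom, with a replicate block, without the 4 libraries with muscle transcripts, with detected genes as a covariate (added after the data were seen) and with only the 2 diets fitted. In the same order, the genes called among all tested were 283, 224, 116, 208, 26, 10 and 122, in place of 316. OO and chow libraries did not overlap in detected genes, so that covariate could not be separated from the diet. The count of members was 2 with DESeq2's Wald test, which added Coq9 and called 686 genes in all. In CSO against chow it was 0, in place of 1, without the muscle libraries and with the clock score as a covariate, where 14 and 23 genes were called in all, in place of 49. Leaving out 1 library at a time gave 0 to 2 in OO, 0 to 1 in CSO, 0 in SFO and 0 in CSO against SFO. Coq8a was called in 13 of 23 such fits in OO (0.53 to 0.72; not without OO 1, OO 3, OO 4, OO 6, CSO 4, CSO 6, chow 2, chow 4, chow 5 or chow 6) and in 15 of 23 in CSO, and Coq9 in OO in 4 of 23 (0.50 to 0.90). Coq8a in OO was at 0.42 ± 0.16 with library totals, which moved the median of all genes by -0.186 and gave 62 genes higher and 162 lower in place of 206 and 110, at 0.58 ± 0.17 with voom, at 0.60 ± 0.18 with the replicate block (adjusted p = 0.0685) and at 0.61 ± 0.17 with only the 2 diets fitted. Same-numbered libraries did not deviate together (33 pairs, r from -0.07 to 0.09), so the numbers were not taken to pair libraries. Of the uncalled values, the sign turned against chow in OO for Coq3 (-0.08 with library totals, -0.32 with voom, -0.15 with the block), Coq6 (0.15 without muscle libraries and 0.15 with the clock score), Coq10b (0.01 without muscle libraries), Coq8b (0.87) and Coq10a (0.14) with detected genes. It turned in CSO for Coq2 (-0.06 without muscle libraries) and, with the clock score, for Coq3 (-0.25), Coq9 (-0.06) and Coq10b (-0.07). In SFO it turned for Coq6 (-0.47 with voom) and Coq7 (-0.04 without muscle libraries), and in CSO against SFO for Coq5 (0.11 with voom) and Coq3 (-0.41 with the clock score). With 1 library left out it turned in OO for Coq3 (-0.43 to 0.32), Coq6 (-0.24 to 0.19), Coq8b (-0.39 to 0.04) and Coq10b (-0.81 to 0.17), in CSO for Coq2 (-0.06 to 0.27), in SFO for Coq3 (-0.03 to 0.25), Coq8b (-0.55 to 0.07) and Coq9 (-0.23 to 0.02), and in CSO against SFO for Coq5 (-0.44 to 0.16). The cause was not tested. Members stood on between 8 and 5849 counts per library.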
